A study of Mus musculus with 4 samples.

Results

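H19, Igf2, Dlk1, Grb10, Igf2r, Cdkn1c, Mest and Peg3 are imprinted genes, each expressed mainly from the copy inherited from a single parent. They were taken from the deposited gene table by symbol. All 8 were found among its 42977 genes, and all 8 were among the 33480 that passed the filter on low counts. H19 was also found as 1 transcript in the deposited table of non-coding RNAs.

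The RNA came from exosomes, small vesicles collected from the medium of cultured mesenchymal stem cells (MSCs). The MSCs were grown from bone marrow of male SD rats aged 6 to 8 weeks and were used at passages 3 to 4. The 2 MSCATV-Exo libraries came from MSCs pretreated with 1 µmol/L atorvastatin, a statin that blocks cholesterol synthesis, and the 2 MSC-Exo libraries came from MSCs given the same volume of the solvent DMSO. Pretreatment lasted 24 h by some labels and 48 h by the treatment protocol. The labels do not say whether the 2 libraries of a group came from separate animals or cultures. The p-values of the tests run here rest on the spread between these libraries, which may be technical. Mouse is the registered organism, whereas protocol, build and identifiers are those of rat, and coordinates below are those of the deposited tables (Rnor_6.0). No rat sequence was at hand, so none is shown.

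Imprinting rests on DNA methylation set in the germ line at control regions that each govern a small cluster of genes. H19 and Igf2 share such a region: in the mouse, H19 is read from the maternal copy and Igf2 from the paternal copy. Many imprinted genes act on growth before birth and become less active in adult tissues. In the mouse, H19, Igf2, Dlk1, Grb10, Igf2r, Cdkn1c, Mest and Peg3 have been described as part of one network of co-expressed growth genes. The counts do not separate the 2 parental copies, so they say nothing about imprinting itself.

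Gene counts summed to 5947020 and 5598378 in MSCATV-Exo replicates 1 and 2 and to 5350295 and 5355098 in MSC-Exo replicates 1 and 2. The 8 genes together held 1864 and 2107 counts against 1502 and 1521, under 0.1% of each library. Replicates differed by more than counting error, and the common biological coefficient of variation, the fitted spread between replicates, was 0.559. The tables record low counts for most genes of the genome. The median olfactory receptor gene, of a family that MSCs are not known to use, had 1.71 and 2.28 RPKM in MSCATV-Exo and 2.47 and 2.36 RPKM in MSC-Exo. RPKM are read counts scaled to the length of the gene and to the size of the library. The median protein-coding gene had 4.12 and 4.54 RPKM against 4.74 and 4.70 RPKM, so a level of a few RPKM does not by itself show expression. Of 9 MSC marker genes 8 had reads, with a sum of 303 and 312 RPKM in MSCATV-Exo and 282 and 307 RPKM in MSC-Exo. Vim made up most of it at 225 and 214 RPKM against 187 and 202 RPKM, while Col1a2 was listed at 0 in all 4 libraries. The median of the 9 was 7.34 and 5.42 RPKM against 6.15 and 11.6 RPKM. Col1a1 came after Vim at 27.8 and 39.4 RPKM against 28.7 and 41.9 RPKM. Thy1 had 14.7 and 24.2 RPKM against 21.9 and 20.5 RPKM, and Col3a1 18.1 and 15.8 RPKM against 22.7 and 16.2 RPKM. Cd44, at 2.85 and 3.93 RPKM against 4.15 and 3.20 RPKM, lay under the protein-coding median in every library. In each library 8 of the 9 exceeded the olfactory receptor median. The 8 leukocyte markers summed to 41.7 and 43.0 RPKM against 49.8 and 41.8 RPKM, and the 4 endothelial markers to 23.1 and 22.0 RPKM against 23.1 and 28.0 RPKM. The 4 erythroid markers found summed to 11.2 and 14.0 RPKM against 21.8 and 11.5 RPKM, the 3 hepatocyte markers to 16.7 and 14.4 RPKM against 17.7 and 16.4 RPKM, and the 3 placenta and yolk sac markers to 5.00 and 11.4 RPKM against 8.96 and 3.75 RPKM. The part of these markers in the values below was not tested. In exosomes, fewer vesicles carrying a transcript and fewer copies per vesicle cannot be told apart.

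H19, a long non-coding RNA that limits growth in the mouse fetus, had the highest level per length (RPKM) of the 8 genes in every library. In counts, which grow with gene length, the longer Peg3 exceeded it in both MSC-Exo libraries, and Grb10 and Igf2r exceeded it in MSC-Exo replicate 2. It lies on chromosome 1 from 215744404 to 215747080, minus strand. It had 38.7 and 36.4 RPKM in MSCATV-Exo and 24.1 and 17.3 RPKM in MSC-Exo, so both MSCATV-Exo libraries stood above both MSC-Exo libraries. These levels were 22.7 and 16.0 times the olfactory receptor median in MSCATV-Exo and 9.78 and 7.36 times that median in MSC-Exo. Among 10125 genes annotated as lncRNA or lincRNA, H19 ranked 38 and 44 by RPKM in MSCATV-Exo and 88 and 130 in MSC-Exo. Its level exceeded that of at least 97.9% of protein-coding genes in each library.

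On the scale of the test, CPM (counts scaled to library size, with TMM factors for library composition), H19 averaged 91.2 ± 9.48 CPM in MSCATV-Exo and 46.7 ± 10.3 CPM in MSC-Exo (SD, n = 2 each), 1.95-fold higher. The log2 fold change was 0.96 ± 0.28 (SE) by edgeR's quasi-likelihood test, with a Benjamini-Hochberg adjusted p = 1.00 over all genes. DESeq2 called it at an adjusted p of 0.0385. Against counting error alone, the MSCATV-Exo libraries had 90.0 CPM of the library total (exact 95% Poisson interval 82.5 to 97.9) and 84.7 CPM (77.2 to 92.6), and the MSC-Exo libraries 56.1 CPM (49.9 to 62.8) and 40.3 CPM (35.1 to 46.1). The 2 MSC-Exo intervals did not overlap each other, so H19 differed between these replicates by more than counting error. Such intervals hold for counting error alone, as PCR copies of a molecule cannot be recognised without molecular identifiers. Of the 602 tested genes above 20 RPKM on average, H19 among them, 61.1% were higher in MSCATV-Exo and the median log2 fold change was 0.12, against 49.4% and -0.01 for all tested genes.

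The H19 transcript in the table of non-coding RNAs carried the same counts in each library as the gene, and so is no second measurement. In the fit of that table its log2 fold change was 1.00 ± 0.31 (SE), with an edgeR adjusted p of 1.00 and a DESeq2 adjusted p of 0.0397. Of 13128 non-coding transcripts 3.53% had an unadjusted edgeR p under 0.05, as H19 did, and 1.36% had one and were higher. DESeq2 called 0.236% of those non-coding transcripts in all and 0.0457% as higher. Inside H19 lies the row of Mir675, the microRNA cut from the H19 transcript, with 40 and 0 counts in MSCATV-Exo and 4 and 2 in MSC-Exo. It did not pass the filter on low counts, and the MSCATV-Exo replicates lay on both sides of MSC-Exo. How reads shared by the 2 rows were assigned is not given in the sources used here.

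**Figure D1:**
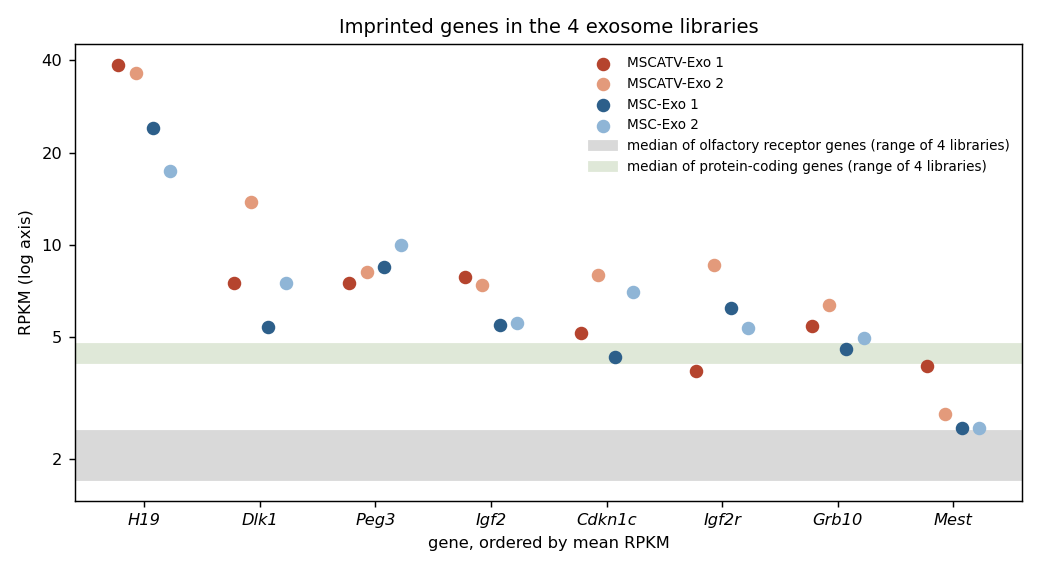
RPKM (log axis) of the 8 imprinted genes, ordered by their mean, with 1 point per library; grey and green bands give the range over the 4 libraries of the median olfactory receptor gene and the median protein-coding gene. H19 lies at 17.3 to 38.7 RPKM, apart from the other genes, which lie at 2.52 to 13.8 RPKM.

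Igf2 encodes a fetal growth factor that signals through the IGF1 receptor, and its gene lies 81.0 kb from H19 (chromosome 1, 215828102 to 215839081, minus strand). It had 257 and 227 counts in MSCATV-Exo and 161 and 164 counts in MSC-Exo. Replicates of each group lay close together, and both MSCATV-Exo libraries stood above both MSC-Exo libraries. It averaged 43.8 ± 4.64 CPM in MSCATV-Exo and 29.5 ± 0.673 CPM in MSC-Exo (SD, n = 2 each), and the edgeR log2 fold change was 0.57 ± 0.31 (SE; edgeR adjusted p = 1.00). Its level was 7.85 and 7.37 RPKM against 5.47 and 5.56 RPKM, or 4.60 and 3.24 times the olfactory receptor median against 2.22 and 2.36 times. In MSC-Exo it exceeded 59.1% and 59.2% of protein-coding genes, so Igf2 stood a little above the median protein-coding gene there. It exceeded 75.8% and 81.1% of olfactory receptor genes in these libraries. LOC100909737 overlaps Igf2 on the opposite strand, with 11 and 33 counts against 16 and 28. On the same strand inside Igf2 lie ENSRNOG00000051917 (20 and 13 counts against 17 and 11) and Mir483 (0 and 0 against 0 and 20). How reads shared with these rows were assigned is not given in the sources used here.

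H19 exceeded Igf2 in every library. The ratio of their RPKM was 4.93 and 4.94 in MSCATV-Exo and 4.41 and 3.12 in MSC-Exo, and the groups did not overlap. Of all counts of the 8 genes, H19 took 28.7% (95% Wilson interval 26.7 to 30.8) and 22.5% (20.8 to 24.3) in MSCATV-Exo and 20.0% (18.0 to 22.1) and 14.2% (12.5 to 16.0) in MSC-Exo. The share differed between replicates of each group beyond these intervals.

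Igf2r encodes the receptor that removes IGF2 from the cell surface and sends it to lysosomes (chromosome 1, 48176095 to 48264482, plus strand). Its counts were 203 and 422 in MSCATV-Exo and 294 and 253 in MSC-Exo, so the MSCATV-Exo replicates lay below and above MSC-Exo and the groups overlapped. The replicates of MSCATV-Exo differed 2.03-fold in CPM, the widest gap within a group among the 8 genes. The log2 fold change was 0.18 ± 0.35 (SE), and it was -0.41 when MSCATV-Exo replicate 2 was left out and 0.60 when replicate 1 of that group was. The ratio of Igf2 to Igf2r in RPKM was 2.02 and 0.860 against 0.876 and 1.04, with overlapping groups. Mas1l, on the opposite strand, overlaps part of Igf2r and had 283 and 238 counts against 218 and 204. As the kit does not mark strand, reads of Mas1l and Igf2r cannot be told apart where they overlap.

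Grb10 encodes an adaptor protein that damps signalling of the insulin and IGF1 receptors (chromosome 14, 92021851 to 92122249, minus strand). It had 306 and 339 counts in MSCATV-Exo and 232 and 252 counts in MSC-Exo. The groups did not overlap, with 58.2 ± 3.14 CPM in MSCATV-Exo and 43.9 ± 2.99 CPM in MSC-Exo (SD, n = 2 each), and the log2 fold change was 0.41 ± 0.28 (SE; edgeR adjusted p = 1.00). Its level of 4.57 to 6.38 RPKM lay near the protein-coding median. An unnamed locus on the opposite strand, LOC103693175, overlaps Grb10 with 127 and 59 counts against 51 and 68. The kit does not mark strand, so reads of the 2 cannot be told apart where they overlap.

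Dlk1 encodes a membrane protein of the Notch ligand family that holds back the maturing of fat cells (chromosome 6, 133576513 to 133583751, plus strand). It had 71 and 123 counts in MSCATV-Exo and 46 and 64 counts in MSC-Exo. In CPM it averaged 17.5 ± 6.32 in MSCATV-Exo and 9.98 ± 2.41 in MSC-Exo (SD, n = 2 each), and the log2 fold change was 0.81 ± 0.54 (SE; edgeR adjusted p = 1.00). MSCATV-Exo replicate 2 carried most of this difference, and without it the log2 fold change was 0.38, against 1.13 without MSCATV-Exo replicate 1. Separation of the groups depended on the scale, since in RPKM MSCATV-Exo replicate 1 had 7.48 and MSC-Exo replicate 2 had 7.49.

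Cdkn1c encodes p57, an inhibitor of cell division (chromosome 1, 216661067 to 216663791, minus strand), 0.914 Mb from H19. It had 65 and 95 counts in MSCATV-Exo and 49 and 80 in MSC-Exo. The replicates of each group spread as widely as the groups, and the log2 fold change was 0.30 ± 0.55 (SE), or -0.03 without MSC-Exo replicate 1.

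Mest, which encodes a protein related to hydrolases and is expressed in growing mesoderm and fat tissue, had the fewest reads (chromosome 4, 58052786 to 58063227, plus strand). It had 32 and 21 counts in MSCATV-Exo and 18 and 18 counts in MSC-Exo. The groups did not overlap, but the log2 fold change of 0.55 ± 1.11 (SE) was smaller than its error, and it was 0.20 without MSCATV-Exo replicate 1. In MSC-Exo its level was 1.02 and 1.07 times the olfactory receptor median, so Mest was not distinguishable there from a typical olfactory receptor gene.

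Peg3, a zinc finger protein gene active in the brain and in tissue stem cells of the mouse (chromosome 1, 70210810 to 70237450, plus strand), was the 1 gene of the 8 with a negative log2 fold change. It had 395 and 406 counts in MSCATV-Exo and 402 and 474 counts in MSC-Exo. The log2 fold change was -0.14 ± 0.26 (SE; edgeR adjusted p = 1.00) and 0.00066 without MSC-Exo replicate 2. In CPM MSCATV-Exo replicate 2 and MSC-Exo replicate 1 both had 72.4 and the groups overlapped, while in RPKM both MSCATV-Exo libraries were lower (7.48 and 8.17 against 8.47 and 9.97). Apeg3, an antisense transcript inside Peg3, had 22 and 56 counts against 25 and 30, and its reads cannot be told apart from those of Peg3 without strand.

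**Figure D2:**
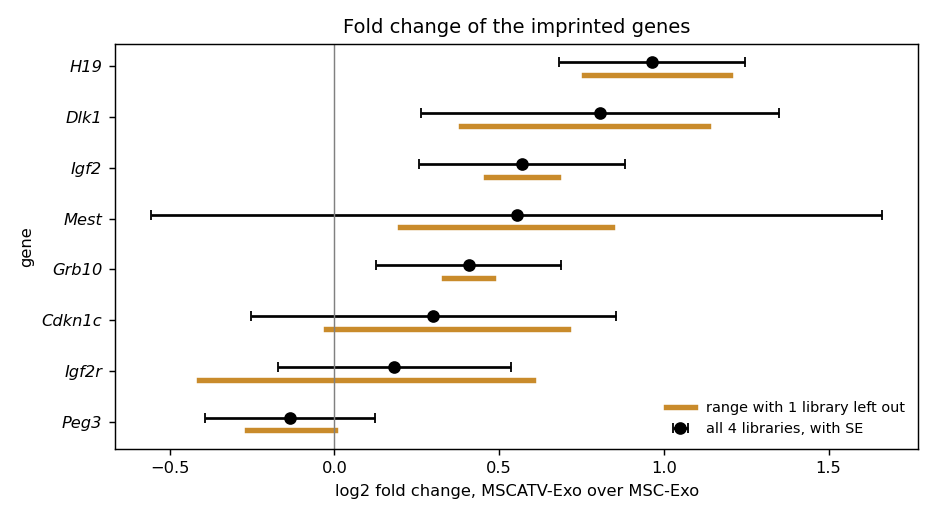
Log2 fold change of the 8 genes, MSCATV-Exo over MSC-Exo, with all 4 libraries (black points, bars are the SE of the edgeR fit) and the range over the 4 fits that each leave out 1 library (gold). The range stays above 0 for H19, Dlk1, Igf2, Mest and Grb10, and spans 0 for Cdkn1c, Igf2r and Peg3.

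The 8 genes were chosen with earlier results of these data known, so the shares that follow are a description only. Of the 8 genes, 7 had a higher value in MSCATV-Exo, beside 49.4% of all tested genes. Their median log2 fold change was 0.48, beside -0.01 for all tested genes. With library totals in place of TMM factors, the 8 genes had a median of 0.37 with 7 higher, and all tested genes a median of -0.11. In CPM 5 of the 8 did not overlap between groups and were higher, beside 16.1% of all tested genes, and in RPKM it was 4 of the 8, beside 12.8%. By edgeR 0 of the 8 passed an adjusted p of 0.05, as did 0% of all tested genes, and 1 of the 8, H19, had an unadjusted p under 0.05, beside 3.69% of all tested genes. DESeq2 called 1 of the 8, again H19, beside 0.329% of all genes it adjusted. A q-value under 0.05 was given to 5 of the 8 in the authors' deposited table, beside 34.3% of all genes listed there. H19 (q = 5.07e-13), Igf2 (0.00644), Dlk1 (0.0135) and Grb10 (0.0412) were higher and Peg3 (0.0473) was lower, in the authors' deposited table. The test behind those q-values is not given in the sources used here, so whether they allow for the spread between libraries is not known. The 4 genes that are maternally expressed in the mouse (H19, Grb10, Igf2r, Cdkn1c) had a median log2 fold change of 0.35 with 4 higher, and the 4 paternally expressed genes (Igf2, Dlk1, Mest, Peg3) had 0.56 with 3 higher. Only H19, Dlk1 and Peg3 had a mean RPKM over the 4 libraries of at least 3 times the median of such means over olfactory receptor genes. That median was 2.72 RPKM, above the medians of 1.71 to 2.47 RPKM in single libraries. With the test limited to genes at or above 3 times 2.72 RPKM, the log2 fold changes of H19, Dlk1 and Peg3 were 0.86, 0.72 and -0.23.

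The genes around H19 did not share a direction. Within 500 kb on either side, 29 other genes were tested, of which 14 were higher and 15 lower in MSCATV-Exo. Their median log2 fold change was -0.02. By edgeR 0 passed an adjusted p of 0.05 and 1 of the 29 had an unadjusted p under 0.05, near the 3.69% of all tested genes, and DESeq2 called 0, beside 0.329% of all genes it adjusted. H19 had the highest mean RPKM of the 35 rows of that stretch, itself included, since 0 of the other 34 exceeded it. Mrpl23, a mitochondrial ribosomal protein gene 35.1 kb away, had 47 and 30 counts against 11 and 17, which gave 1.45 ± 1.02 (SE) in log2 fold change. Syt8, a synaptotagmin gene, had 78 and 78 counts against 57 and 39, which gave 0.70 ± 0.58 (SE; 0.46 without MSC-Exo replicate 2). Both were higher in both MSCATV-Exo libraries, each with an edgeR adjusted p of 1.00.

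Among the 29 tested genes near H19, 8 were higher and 4 lower without overlap in CPM, beside 16.1% and 17.4% of all tested genes. Some of these were unnamed loci. LOC108349787, an uncharacterised pseudogene, had 133 and 99 counts against 47 and 29 (1.61 ± 0.54 in log2 fold change, SE; edgeR adjusted p = 1.00). LOC102549619, an lncRNA 193 kb beyond H19, had 245 and 211 counts against 111 and 157 (0.76 ± 0.35, SE). Of the loci that were lower without overlap, LOC102546801 had 2 and 3 counts against 16 and 22, and ENSRNOG00000056268 had 0 and 4 against 16 and 32. ENSRNOG00000056268 covers LOC102549619 on the same strand, so how their reads were divided is uncertain. Ifitm10 (56 and 44 counts against 81 and 59; -0.49 ± 0.60, SE; -0.26 without MSC-Exo replicate 1, -0.30 if MSCATV-Exo replicate 2 is left out) and Tnni2 (27 and 29 against 31 and 37; -0.29 ± 0.88, SE; -0.14 without MSC-Exo replicate 2) were also lower without overlap. Abundant neighbours overlapped between groups: the lysosomal protease gene Ctsd had 18.5 and 13.7 RPKM against 9.87 and 15.3 RPKM, and the leukocyte gene Lsp1 had 10.5 and 14.5 RPKM against 10.4 and 14.1 RPKM. Ins2, an insulin gene 17.9 kb beyond Igf2, had 38 and 22 counts against 0 and 77, so its 2 MSC-Exo replicates disagreed. The row of Cttn spans H19, Igf2 and Cdkn1c in the deposited annotation and is listed at 0 in all 4 libraries.

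**Figure D3:**
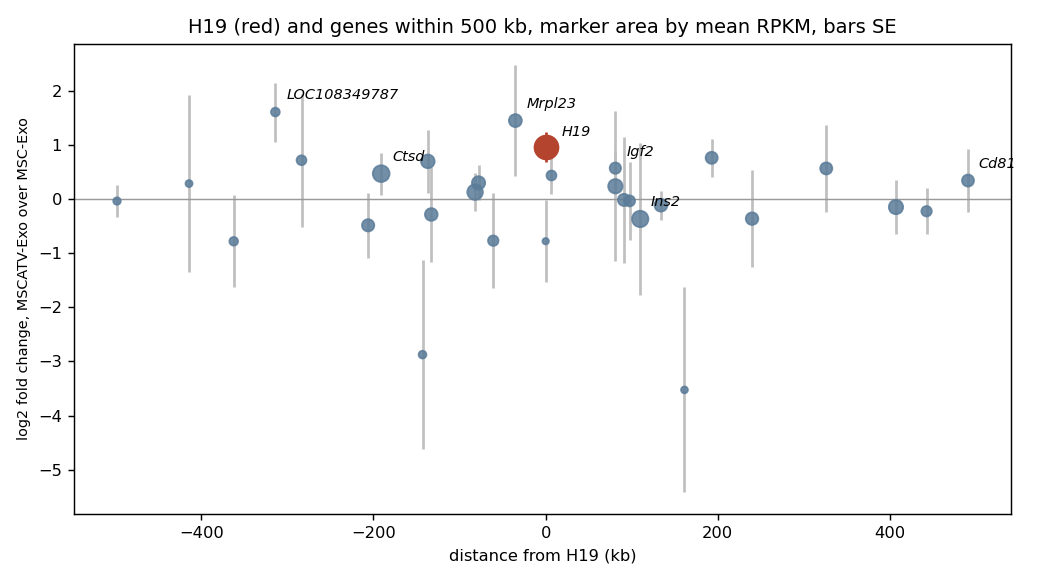
Log2 fold change, MSCATV-Exo over MSC-Exo, of H19 (red) and of the tested genes within 500 kb that average at least 10 counts, by distance from H19 in kb along the chromosome; marker area follows mean RPKM and bars are SE. H19 has the largest marker, Igf2 at 81.0 kb lies at 0.57, and the other genes scatter on both sides of 0.

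In the cluster next to it, which holds Cdkn1c, the genes also pointed both ways. Of its 8 genes, grouped after their values were seen, 5 were higher and 3 lower in MSCATV-Exo. By edgeR 0 passed an adjusted p of 0.05 and 0 had an unadjusted p under 0.05 (3.69% of all tested genes), and DESeq2 called 0 (0.329%). Phlda2, which limits placental growth in the mouse, had 127 and 119 counts in MSCATV-Exo and 51 and 108 in MSC-Exo (0.62 ± 0.49 in log2 fold change, SE; 0.16 without MSC-Exo replicate 1). Cd81, which encodes an exosome surface protein, had 71 and 65 counts against 55 and 52 (0.34 ± 0.58, SE), and Nap1l4, a histone chaperone gene, 104 and 113 against 77 and 93 (0.34 ± 0.45, SE; 0.20 without MSC-Exo replicate 1). Kcnq1, a potassium channel gene, had 41 and 94 counts against 121 and 112 (-0.80 ± 0.52, SE; -0.33 without MSCATV-Exo replicate 1), and Tssc4 had 47 and 76 against 112 and 108 (-0.85 ± 0.49, SE; -0.56 without MSCATV-Exo replicate 1). These 5 genes, 3 higher and 2 lower, did not overlap between groups in CPM or in RPKM, beside 33.5% of all tested genes in CPM (16.1% higher and 17.4% lower). Ascl2, a transcription factor gene of the placenta, was the most abundant of the cluster with 12.3 and 6.59 RPKM against 12.4 and 10.5 RPKM.

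Across the genome, 33 of 37 further imprinted genes were found and tested. No gene carried the symbol Meg3, Airn, Kcnq1ot1 or Peg13, so these 4 were not analysed here. Of the 33, 21 were higher and 12 lower (median log2 fold change 0.09), and with library totals 15 were higher (median -0.04). By edgeR 0 passed an adjusted p of 0.05 and DESeq2 called 0 (0.329% of all genes it adjusted), while 2 of the 33 had an unadjusted p under 0.05, beside 3.69% of all tested genes. In CPM 6 were higher and 3 lower without overlap, beside 16.1% and 17.4% of all tested genes, and in RPKM 6 were higher and 5 lower, beside 12.8% and 20.9%. Their mean levels ran from 0.697 to 15.2 RPKM with a median of 5.13 RPKM, and none reached the level of H19.

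Those 2 were Peg12 and Zim1. Peg12, a gene of the Prader-Willi cluster on chromosome 1, had 104 and 98 counts in MSCATV-Exo and 34 and 36 counts in MSC-Exo. The replicates of each group lay close together, and the group means were 18.3 ± 1.10 CPM in MSCATV-Exo and 6.35 ± 0.319 CPM in MSC-Exo (SD, n = 2 each). The log2 fold change was 1.52 ± 0.56 (SE; edgeR adjusted p = 1.00; DESeq2 adjusted p = 0.161), larger than that of H19, and 1.46 to 1.59 with a library left out. Zim1, a zinc finger gene 7.38 kb from Peg3, had 141 and 216 counts in MSCATV-Exo and 74 and 95 in MSC-Exo (1.07 ± 0.41, SE; edgeR adjusted p = 1.00; DESeq2 adjusted p = 0.286). Both were higher in MSCATV-Exo without overlap. Peg12 had 6.72 and 6.72 RPKM against 2.44 and 2.58 RPKM, and Zim1 4.05 and 6.59 RPKM against 2.36 and 3.03 RPKM. The olfactory receptor median in MSC-Exo was 2.47 and 2.36 RPKM. Neither gene was thus clearly distinguishable there from a typical olfactory receptor gene. Genes of the same clusters, Peg3 and Usp29 beside Zim1 and Ndn and Magel2 beside Peg12, overlapped between groups in CPM. Ndn had 16.0 and 5.47 RPKM against 5.96 and 11.7 RPKM, and Magel2 had 12.3 and 8.38 RPKM against 5.93 and 12.3 RPKM, with replicates of each group far apart.

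The largest log2 fold change of the list was that of Peg10, a gene derived from a retrotransposon and needed for the mouse placenta, at 1.66 ± 1.74 (SE). It rested on 18 and 11 counts in MSCATV-Exo against 6 and 3 in MSC-Exo, at or under 1.26 RPKM. Inpp5f, which encodes a phosphoinositide phosphatase, had 74 and 83 counts against 100 and 150 (-0.68 ± 0.45, SE; -0.34 without MSC-Exo replicate 2) and, like Kcnq1 and Tssc4, was lower without overlap in CPM. Rtl1, in the cluster of Dlk1 and 126 kb from it, had 288 and 122 counts against 280 and 292 and overlapped between groups in CPM. Copg2, 1.17 kb from Mest, had 64 and 89 counts against 69 and 54, with overlapping groups. The most abundant of the 33 was Gnas, which encodes the stimulatory G protein alpha subunit, at 12.7 and 16.9 RPKM in MSCATV-Exo and 15.5 and 15.8 RPKM in MSC-Exo. Dio3, a thyroid hormone deiodinase gene of the Dlk1 cluster, had 16.3 and 7.48 RPKM against 12.1 and 12.2 RPKM, and Nnat, a neuronal gene, 12.6 and 4.62 RPKM against 6.64 and 15.3 RPKM. All 3 overlapped between groups.

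The IGF axis list covers ligands, receptors and their substrates, IGF-binding proteins, RNA-binding proteins and a protease. Its genes pointed both ways. Of 17 tested, 9 were higher and 8 lower in MSCATV-Exo (median log2 fold change 0.06, and -0.07 with 8 higher with library totals), and 0 passed an adjusted p of 0.05 by edgeR, with 1 of the 17 at an unadjusted p under 0.05, beside 3.69% of all tested genes. Igfbp4, which encodes a secreted protein that binds IGFs, was the most abundant and the 1 gene of the 17 that DESeq2 called (adjusted p = 0.0314), beside 0.329% of all genes it adjusted. It had 20.8 and 36.9 RPKM in MSCATV-Exo and 11.3 and 14.0 RPKM in MSC-Exo, and its log2 fold change was 1.28 ± 0.34 (SE; edgeR adjusted p = 1.00). Pappa, which encodes a protease that cuts IGFBP4, had 171 and 247 counts against 324 and 272 (-0.52 ± 0.31, SE; -0.29 without MSCATV-Exo replicate 1). The insulin receptor gene Insr had 163 and 206 counts against 268 and 202 (-0.35 ± 0.32, SE; -0.16 without MSC-Exo replicate 1, -0.21 if MSCATV-Exo replicate 1 is left out), and was lower without overlap in CPM and RPKM but not in counts.

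The IGF1 receptor gene Igf1r had 359 and 361 counts in MSCATV-Exo and 338 and 300 in MSC-Exo (0.17 ± 0.27, SE; 0.10 without MSC-Exo replicate 2). Igf2bp1, which encodes a protein that binds Igf2 and H19 RNA, had 270 and 305 counts against 246 and 231 (0.26 ± 0.29, SE). Both were higher without overlap in CPM, but overlapped in RPKM. Of the 17 IGF axis genes, 4 were higher and 2 lower without overlap in CPM, beside 16.1% and 17.4% of all tested genes. In RPKM 1 was higher and 2 lower, beside 12.8% and 20.9%. Igfbp6 had 10.1 and 13.8 RPKM against 7.10 and 20.8 RPKM, and Igfbp2 had 5.71 and 14.9 RPKM against 7.51 and 10.4 RPKM, each with overlapping groups.

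**Figure D4:**
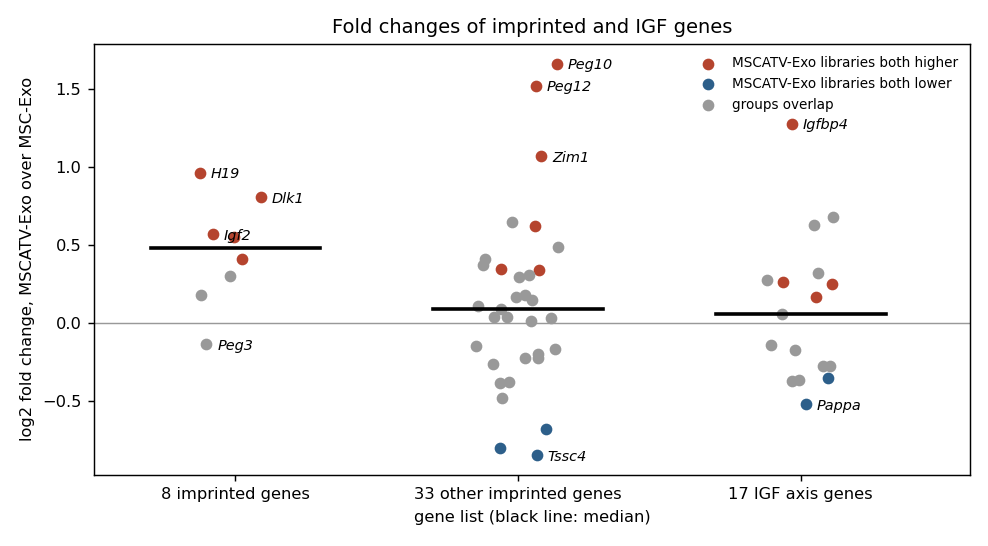
Log2 fold change, MSCATV-Exo over MSC-Exo, of the 8 imprinted genes, 33 other imprinted genes and 17 IGF axis genes; each point is a gene, coloured by whether the 2 groups overlap in CPM, and black lines are medians. The medians are 0.48, 0.09 and 0.06.

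Some genes followed the pattern of H19 closely over the 4 libraries. Likeness was the root mean square difference in log2 CPM after centring each gene. The 17709 genes compared had a mean of at least 20 counts and an identifier that does not start with LOC, RGD or AABR. Closest to H19 were one of the genes listed as Soga3 (difference 0.0384), Gpr137c, Stard6, Mapre2 and Pik3c2g (0.0593), with log2 fold changes of 0.91, 0.94, 1.00, 1.05 and 0.89. Closest to Igf2 were Ninl (0.0193), Tescl, Fbxo36, Dusp1 and Col6a1 (0.0290), with log2 fold changes of 0.61, 0.62, 0.62, 0.54 and 0.58. Igf2 ranked 642 in likeness to H19 and H19 ranked 2569 in likeness to Igf2, at a difference of 0.271, so neither was among the other's closest genes. Fold changes close to those of H19 or Igf2 follow from how these genes were picked. With 4 libraries such likeness is a description only.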

How the data were processed

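Reads from 2 MSCATV-Exo and 2 MSC-Exo libraries were aligned with TopHat2 to a rat build named as rn6 and Rnor_6.0, per the submitters' processing notes. The TopHat2 version, read counter and annotation are not given in the sources used here. The authors deposited whole-number read counts per gene (42977) and per non-coding transcript (18408), and RPKM values. The authors' comparison tables hold mean RPKM, the log2 ratio of the means with a p-value and a q-value, per the file headers.

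The quasi-likelihood test of edgeR 4.0.16 (R 4.3.3) was applied to the counts after filterByExpr, with TMM factors, and Benjamini-Hochberg adjustment ran over 33480 genes or 13128 transcripts. The test is two-sided. SE is the log2 fold change divided by the root of F. On gene counts simulated from the real means and library sizes (33480 genes), the median log2 fold change was 0.99 for 100 abundant genes changed 2-fold, of which 2 were called, and 1.94 for 100 changed 4-fold, of which 59 were called. Among the unchanged genes 2 were called. Each fit was repeated with DESeq2 1.42.0, with RLE factors, library totals, no filter, a mean of at least 1 CPM, a mean of at least 3 times a background median RPKM, the replicate number as a block, each library left out, and limma 3.58.1 on log2 RPKM with a pseudocount of 1 or of 0.1, where the mean RPKM reached 1. DESeq2 adjusted p for 32181 genes. Where a library has 0 counts, up to 3 are allowed, which is 0.535 to 0.549 CPM.

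The 8 genes and the lists were chosen with earlier results of these data known, and lists are described by counts and medians with no list test. Named were all 8 genes, the 6 most abundant and the 4 with the largest fold change of the other imprinted genes, the 4 most abundant IGF axis genes, genes within 500 kb of H19, and the 5 genes most like H19 or Igf2 in pattern. Genes near H19 averaging at least 10 counts numbered 30, of which Mir675 was not tested. Of the 29 tested, 8 were higher and 4 lower without overlap in CPM (16.1% and 17.4% of all tested genes). The rest are not named one by one. Genes of the lists named for non-overlapping groups or as neighbours (Phlda2, Cd81, Nap1l4, Kcnq1, Inpp5f, Rtl1, Copg2, Pappa, Insr, Igf1r, Igf2bp1) were chosen after their values were seen. So were Cd44, Col1a1, Thy1, Col3a1, LOC103693175, Apeg3, Mas1l, Mir483 and Cttn.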

Additional observations from a re-analysis of the deposited data

How the results depend on the processing

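Over 99 alternative values of the 8 genes the direction held in 95. The other 4 were Igf2r, at -0.0045 with limma on log2(RPKM + 0.1) and at -0.41 (MSCATV-Exo replicate 2 left out) in a leave-one-out range of -0.41 to 0.60, Cdkn1c, at -0.027 (MSC-Exo replicate 1 left out) in a range of -0.027 to 0.71, and Peg3, at 0.00066 (MSC-Exo replicate 2 left out) in a range of -0.27 to 0.00066. The cause was not tested. H19 crossed the threshold with DESeq2 (0.97) and with no other alternative, and with a library left out it ranged from 0.76 to 1.20 (smallest edgeR adjusted p = 0.167) and Igf2 from 0.46 to 0.68. With a library left out 6 to 8 of the 8 genes were higher. The edgeR count of 0 genes called became 106 with DESeq2, 8 with no filter, 1 above 3 times the background median and 1 to 168 with a library left out (1, 2, 27 and 168 when MSC-Exo 1, MSC-Exo 2, MSCATV-Exo 1 and MSCATV-Exo 2 were left out). The count of 0 non-coding transcripts became 31, 7, 1 and 0 to 69 under the same alternatives. Of the other imprinted genes 13 of 32 were higher with limma on log2(RPKM + 1), and 16 to 22 of 33 with a library left out. Of the IGF axis genes 7 to 13 of 17 were higher with a library left out.

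No pairing by replicate number was seen (correlation of same-numbered deviations -0.00052 over genes). As most genes have low counts, this does not settle whether the libraries were paired. With the replicate block 4 genes and 2 non-coding transcripts were called, with H19 at 0.98 and Igf2 at 0.57. At these depths 18 to 32 counts for Mest limit any statement on it, and its SE was 1.11.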
